A study of Mus musculus with 25 samples.

Results

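Transcripts of 8 genes whose products belong to the epithelium of the epididymis, Crisp1, Lcn5, Lcn8, Lcn9, Rnase9, Rnase10, Spink10 and Adam7, were followed through 25 mouse fat RNA-seq libraries, out of 54752 gene identifiers in the count files. They were taken as a measure of neighbouring tissue in the dissected fat. The genes were chosen by their reads in the epididymal fat libraries, which an earlier analysis of these data had shown, so their levels by depot and by library are given as a description, with no test.

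The libraries came from 2 white fat depots of male C57BL/6N mice, the epididymal depot (eWAT, 14 libraries) and the inguinal depot (iWAT, 11 libraries). Wild type mice on normal diet (ND) gave 4 eWAT and 3 iWAT libraries, wild type mice on high-fat diet (HFD, 60% of calories from fat) gave 5 and 5, and Acod1-/- mice on the same HFD gave 5 and 3. HFD began at 5 weeks of age and lasted 16 weeks, except for iWAT libraries 2 and 3 of the Acod1-/- group, labelled 17 and 18 weeks. The ND libraries were from mice on ND for 16 weeks. The Acod1 allele was constitutive, so every cell type of those mice carried it, and the wild type animals were littermates. No Acod1-/- library on ND was among those analysed here.

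The epididymis is the coiled duct that carries sperm from the testis, and in males the eWAT pad lies against it. The duct is lined by an androgen-dependent secretory epithelium, whose set of secreted proteins changes along its length from the initial segment through the caput and corpus to the cauda. Lipocalins carry small hydrophobic ligands, the epididymal members of the RNase A family and the CRISP protein are secreted into the lumen, Spink proteins are Kazal-type inhibitors of serine proteases, and ADAM7 is a membrane protein of the disintegrin and metalloprotease family. The inguinal pad lies under the skin, away from the duct.

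On GRCm38, with the gene models of GENCODE vM21, the lipocalin and RNase members sat in clusters of their families. The lipocalin genes lay on the plus strand of chromosome 2, Lcn8 at chr2:25653120-25656217, Lcn5 at chr2:25657952-25661977 and Lcn9 at chr2:25823153-25825537, with 1735 bases between Lcn8 and Lcn5. On chromosome 14, Rnase10 at chr14:51007751-51010758 on the plus strand and Rnase9 at chr14:51038459-51041869 on the minus strand were 27.7 kb apart. Adam7 was at chr14:68497336-68533741 and Crisp1 at chr17:40293758-40319207, both on the minus strand. These 7 members overlapped no other annotated gene.

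The neighbours Lcn8 and Lcn5, and Rnase10 and Rnase9, had their highest reads in different libraries, as described below, so the 250 bases before the RefSeq start of each (GRCm38.p6, 5′ to 3′ on the gene's strand) are shown, with those of Lcn9. Promoter windows were taken for 6 of the 8 members, and not for Adam7 and Spink10. Capitals mark the hexamer AGAACA, the core of androgen response elements, or its reverse complement TGTTCT.
Lcn8: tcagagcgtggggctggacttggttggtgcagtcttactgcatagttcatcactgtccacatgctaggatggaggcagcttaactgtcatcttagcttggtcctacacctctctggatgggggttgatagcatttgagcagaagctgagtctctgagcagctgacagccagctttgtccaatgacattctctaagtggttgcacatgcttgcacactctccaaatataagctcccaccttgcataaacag
Lcn5: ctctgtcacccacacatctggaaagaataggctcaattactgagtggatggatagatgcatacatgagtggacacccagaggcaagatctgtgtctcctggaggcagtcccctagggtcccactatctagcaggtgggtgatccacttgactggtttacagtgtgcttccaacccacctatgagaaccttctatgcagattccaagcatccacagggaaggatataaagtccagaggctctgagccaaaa
Lcn9: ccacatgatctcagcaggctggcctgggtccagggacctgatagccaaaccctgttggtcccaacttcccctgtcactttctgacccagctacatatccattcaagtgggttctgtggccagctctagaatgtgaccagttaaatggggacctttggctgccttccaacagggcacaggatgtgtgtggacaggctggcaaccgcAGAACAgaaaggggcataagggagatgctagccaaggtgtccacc
Rnase10: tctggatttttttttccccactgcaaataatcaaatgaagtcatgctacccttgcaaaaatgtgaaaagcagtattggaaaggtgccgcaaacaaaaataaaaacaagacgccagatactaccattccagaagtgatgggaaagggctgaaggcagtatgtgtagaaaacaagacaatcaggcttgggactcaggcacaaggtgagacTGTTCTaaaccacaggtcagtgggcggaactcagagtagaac
Rnase9: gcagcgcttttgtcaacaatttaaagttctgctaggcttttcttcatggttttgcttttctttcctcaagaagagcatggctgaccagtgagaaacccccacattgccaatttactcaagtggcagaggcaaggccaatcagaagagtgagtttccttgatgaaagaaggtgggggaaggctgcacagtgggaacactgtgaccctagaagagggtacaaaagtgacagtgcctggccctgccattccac
The windows lie at chr2:25652868-25653117, chr2:25657702-25657951, chr2:25822903-25823152, chr14:51007501-51007750 and, on the minus strand, chr14:51041868-51042117. The hexamer stood in the windows of Lcn9 and Rnase10, beginning 45 and 42 bases before the start, and in none of the windows of Lcn8, Lcn5, Rnase9 and Crisp1. It occurred in 16.1% of 32851 promoter windows of this length, searched on both strands. A second annotated start of Rnase10 had 2 matches in its window, which overlaps the first, and 1 of them was the same TGTTCT. That window also had 1 match to AGGAAG or its reverse complement CTTCCT, the core of ETS factor sites, which 29.5% of windows held. The motifs shared no bases, and a match is given only as a feature of the letters.

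Depth ran from 31405063 to 52335623 reads on genes per library. Levels are given as CPM, reads scaled to a library of 1000000 reads on genes. A count of 3 reads, taken here as the floor of a library, stood for 0.0573 to 0.0955 CPM. The depot labels were checked against markers. Wt1, a gene of the mesothelium of visceral fat, had 203 to 680 reads in eWAT and Tbx15, a gene of subcutaneous fat, 1 to 17. Summed over 5 visceral depot genes, the level was 36.6 to 146 CPM in eWAT and 0.175 to 3.05 in iWAT. The summed level of 4 subcutaneous depot genes was 5.40 to 21.6 CPM in eWAT and 48.04 to 72.5 in iWAT, and that of 8 adipocyte genes was 20073 to 47101 and 29055 to 52321. Acod1 itself had 0 to 9 reads in every library, wild type included, so its reads could not check the genotype labels. Apart from the floors, CPM are after TMM scaling, and levels of different genes are compared as FPKM, which also divides by transcript length.

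All 8 members were read in eWAT, and their amount differed by orders of magnitude between mice of 1 group. Summed over the 8 genes, the ND group had 142, 442636, 3257 and 125 reads in libraries 1 to 4. In the HFD group of wild type mice there were 86, 16, 12, 50 and 6015 reads, and in the Acod1-/- HFD group 10957, 52, 918, 213 and 50609. ND library 2 stood above every other library, and 1 library of each HFD group, number 5 in both, stood above the rest of its group. In ND library 2 these 8 genes took 0.880% of all reads on genes (95% Wilson interval 0.878 to 0.883%, counting error only), against 0.111% (0.110 to 0.112%) in Acod1-/- library 5.

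As summed CPM, the eWAT groups had means of 2021 ± 3983 (SD, n = 4) in ND, 24.9 ± 53.6 (n = 5) in wild type HFD and 281 ± 471 (n = 5) in Acod1-/- HFD, each SD being larger than its mean. The medians were 42.3, 1.29 and 24.99, and the ranges, 2.43 to 7995, 0.273 to 121 and 1.98 to 1098, overlapped between all 3 groups. Over the 14 eWAT libraries the mean was 686 ± 2124, and it was 124 without ND library 2. In the iWAT groups the means were 0.382 ± 0.187 (n = 3) for ND, 0.485 ± 0.256 (n = 5) for wild type HFD and 0.617 ± 0.219 (n = 3) for Acod1-/- HFD. Ordered by median, the groups ran from eWAT ND through eWAT Acod1-/- HFD and eWAT wild type HFD to the iWAT groups at 0.600, 0.351 and 0.278 (Acod1-/- HFD, wild type HFD, ND). Wild type HFD eWAT was not separate from iWAT, since its lowest libraries, at 0.273 and 0.332, lay inside the iWAT range of 0.258 to 0.843.

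**Figure D1:**
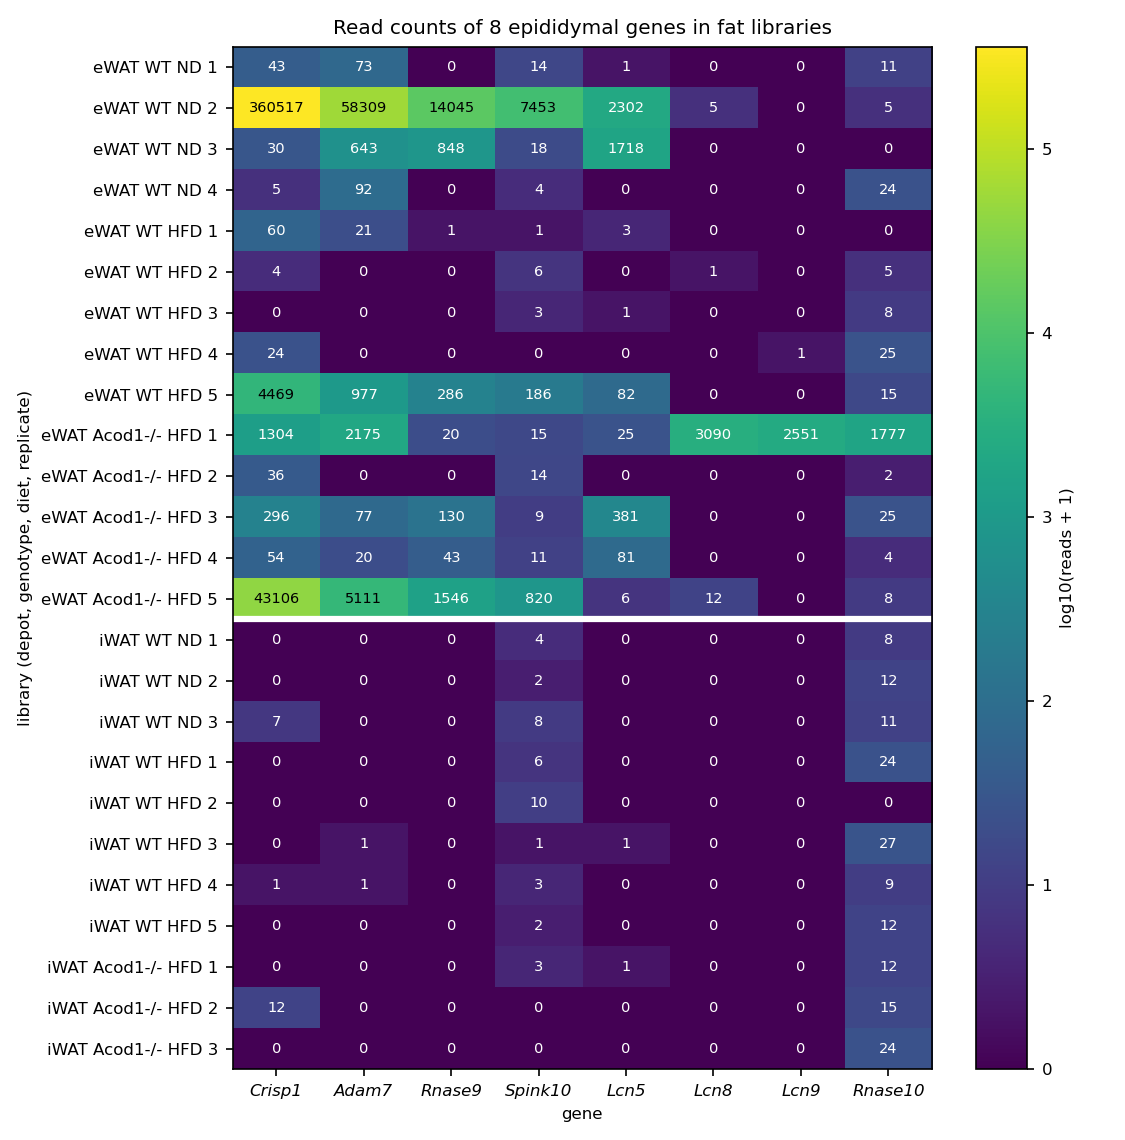
Reads of each of the 8 genes (columns) in each of the 25 libraries (rows, eWAT above the white line and iWAT below), with the count printed in each cell and the colour giving log10(reads + 1). Counts over 1000 stood in a few eWAT rows, among them ND library 2 and Acod1-/- library 1, while no iWAT cell passed 27 reads.

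Crisp1, the gene of a cysteine-rich protein that coats sperm, gave the most reads of the set. It had 43, 360517, 30 and 5 reads in the ND libraries, 60, 4, 0, 24 and 4469 in wild type HFD, and 1304, 36, 296, 54 and 43106 in Acod1-/- HFD. It was above the floor in 13 of 14 eWAT libraries, and ND library 2 held 87.9% of all its eWAT reads. At 5063 FPKM there, against 665 in Acod1-/- library 5 and 61.1 in wild type HFD library 5, it was the highest member per length in each of these 3 libraries.

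Adam7 followed Crisp1 in the high libraries but was also present where Crisp1 was scarce. Its reads were 73, 58309, 643 and 92 in ND, 21, 0, 0, 0 and 977 in wild type HFD, and 2175, 0, 77, 20 and 5111 in Acod1-/- HFD. For every 100 Crisp1 reads there were 11.9 Adam7 reads in Acod1-/- library 5, 16.2 in ND library 2 and 21.9 in wild type HFD library 5. The same ratio was 167 in Acod1-/- library 1 and 2143 in ND library 3, so the proportions of these transcripts were not constant from library to library.

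Rnase9, a secreted member of the RNase A family, was read at 0, 14045, 848 and 0 in ND, 1, 0, 0, 0 and 286 in wild type HFD, and 20, 0, 130, 43 and 1546 in Acod1-/- HFD. Its share in ND library 2 was 83.0% of its eWAT reads. Spink10 had 14, 7453, 18 and 4 reads in ND, 1, 6, 3, 0 and 186 in wild type HFD, and 15, 14, 9, 11 and 820 in Acod1-/- HFD. Its gene, at chr18:62548911-62668070 on the plus strand, shares its span with Gm36368, Spink7 and Spink13 on the opposite strand, and since it was not stated whether strand was used in counting, Spink10 reads are uncertain. Rnase9 and Spink10 were both highest in the libraries where Crisp1 was highest, with 3.90 Rnase9 reads and 2.07 Spink10 reads per 100 Crisp1 reads in ND library 2 and 3.59 and 1.90 in Acod1-/- library 5.

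Lcn5, a lipocalin that binds retinoids, had a pattern of its own among these. It was read at 1, 2302, 1718 and 0 in ND, 3, 0, 1, 0 and 82 in wild type HFD, and 25, 0, 381, 81 and 6 in Acod1-/- HFD. ND library 3 was almost as high in Lcn5 as ND library 2, at 48.1 against 51.9 FPKM, although its Crisp1 was at 0.523 FPKM against 5063. In Acod1-/- library 5, with the second highest Crisp1, there were 6 Lcn5 reads.

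Lcn8 and Lcn9 were nearly confined to 1 library. Lcn8 had 3090 reads in Acod1-/- library 1, 12 in Acod1-/- library 5, 5 in ND library 2, 1 in wild type HFD library 2 and 0 in the other 10 eWAT libraries. Lcn9 had 2551 reads in Acod1-/- library 1, 1 in wild type HFD library 4 and 0 in the other 12. That library held 99.4% of the eWAT reads of Lcn8 and 99.96% of those of Lcn9, and there Lcn8 was at 113 FPKM and Lcn9 at 72.1. Lcn5, whose gene lies next to Lcn8, had 25 reads in the same library.

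Rnase10, whose product is made in the initial segment of the duct, was split between that library and a low level shared with iWAT. It had 1777 reads in Acod1-/- library 1, or 93.1% of its eWAT total and 25.3 FPKM. The other eWAT libraries had 11, 5, 0 and 24 reads in ND, 0, 5, 8, 25 and 15 in wild type HFD and 2, 25, 4 and 8 in Acod1-/- HFD. In iWAT its reads ran from 0 to 27 with a median of 12, so outside Acod1-/- library 1 its eWAT and iWAT counts covered the same range.

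Per transcript length, the mixture of the 8 genes differed between the libraries rich in them. Crisp1 made up 88.6% of their summed FPKM in ND library 2, 90.9% in Acod1-/- library 5 and 82.1% in wild type HFD library 5. Lcn5 led in ND library 3 with 68.5%, followed by Rnase9 with 25.1%, and Lcn5 also led in Acod1-/- libraries 3 and 4 with 54.8% and 51.0%. In Acod1-/- library 1, Lcn8 made up 45.9%, Lcn9 29.4% and Rnase10 10.3%, while Crisp1 made up 8.91%. ND libraries 1 and 4, with 142 and 125 reads in all, had Adam7 at 26.4% and 50.9%, and such small sums give coarse shares. In bulk tissue, fewer cells of a type and less RNA per cell cannot be told apart.

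**Figure D2:**
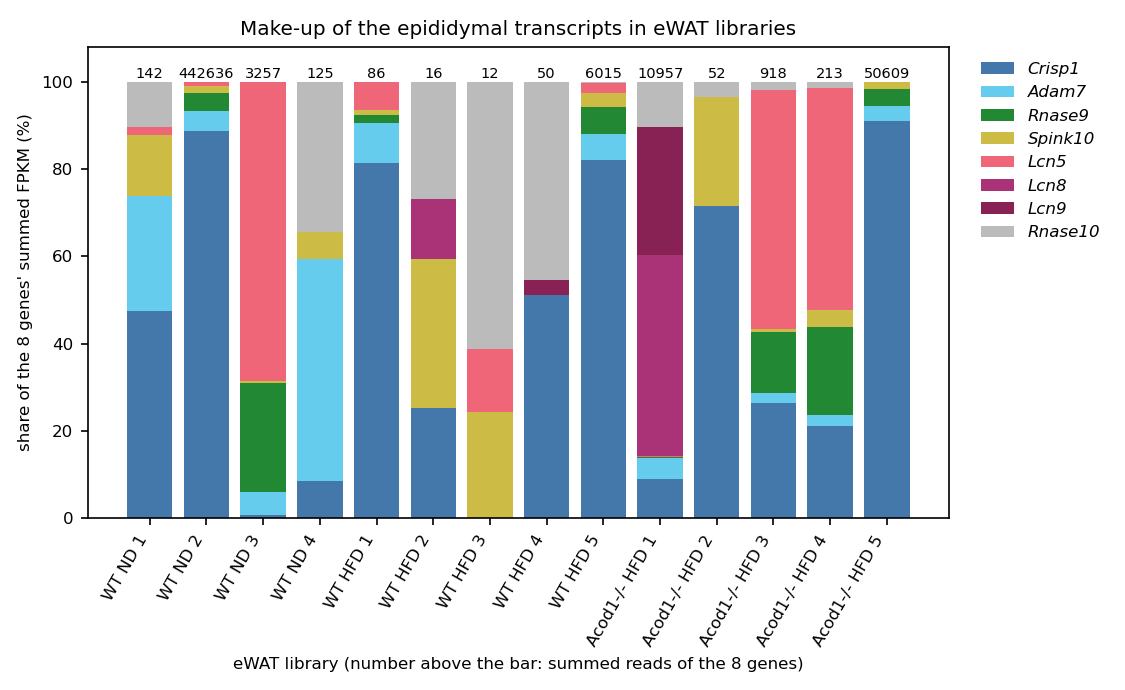
Share of the summed FPKM of the 8 genes (y axis, percent) that each gene took in each of the 14 eWAT libraries, with the summed reads above each bar. Crisp1 filled 82.1% to 90.9% of the bars of ND 2, wild type HFD 5 and Acod1-/- HFD 5, Lcn5 led in ND 3, and Lcn8 and Lcn9 filled most of the bar of Acod1-/- HFD 1.

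In iWAT the members were at or near 0. Lcn8, Lcn9 and Rnase9 had 0 reads in all 11 libraries, which over 455470911 reads on genes allows a level of up to 0.00659 CPM, counting error only. Crisp1 had 7 reads in ND library 3, 12 in Acod1-/- library 2, 1 in wild type HFD library 4 and 0 elsewhere. Lcn5 and Adam7 never passed 1 read. Rnase10 was above the floor in 10 of 11 libraries and Spink10, with 0 to 10 reads, in 4. The iWAT library with the most Crisp1 reads, Acod1-/- library 2, also had 13478 reads of the basal keratin Krt14 and 240 of Spink8, and their part in the Crisp1 value was not tested.

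Diet was compared in eWAT between wild type HFD and wild type ND. All 8 members passed the filter on low counts, a mean of at least 1 CPM over the depot, mostly through the libraries in which they were high. Fitted with edgeR's quasi-likelihood test over 14936 genes, with a call at a Benjamini-Hochberg adjusted p under 0.1, 4 of 8 members were called lower on HFD and 0 higher. Of all genes tested, 26.9% were called lower and 24.8% higher. Nothing is read from these counts, or from the folds and adjusted p below. The members were selected on the reads of the same libraries, and the folds follow 1 or 2 of them.

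Lcn5 fell by 5.88 on the log2 scale (SE 2.16, adjusted p = 0.0410), Rnase9 fell by 5.86 (SE 2.36, adjusted p = 0.0584), Adam7 fell by 6.04 (SE 2.45, adjusted p = 0.0605) and Spink10 fell by 5.39 (SE 2.22, adjusted p = 0.0640), by edgeR. Crisp1, at -6.47 (SE 3.08), was not called (adjusted p = 0.104), nor was Rnase10 at 0.35 (SE 1.72, adjusted p = 0.880). No fold is given for Lcn8 and Lcn9, whose sums were at 5 reads or fewer in both groups. The median of the 6 folds was -5.87, beside -0.04 over all genes. The reads of the groups overlapped for each of the 6 genes. Without ND library 2, Lcn5 was the only member still called (log2 change -5.32, edgeR adjusted p = 0.0763). The values of Adam7 (-0.65), Rnase9 (-2.60), Crisp1 (5.10) and Spink10 (1.62) then had adjusted p between 0.183 and 0.823, and those of Crisp1 and Spink10 had turned in sign. Without wild type HFD library 5 the fold of Crisp1 was -11.60 and it was called (edgeR adjusted p = 0.0311). Leaving out wild type HFD library 1, 2, 3 or 4 left 2, 3, 1 and 1 members called.

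Genotype was compared in eWAT between Acod1-/- HFD and wild type HFD. By the same test 3 of 8 members were called higher in Acod1-/- HFD and 0 lower. Of all genes tested, 9.13% were called higher and 10.8% lower. Nothing is read from this count, or from the genotype folds and adjusted p, since the members were selected on these reads. The 3 genes had 93.1% to 99.96% of their eWAT reads in Acod1-/- library 1, through which they passed the filter. Rnase10 had a log2 change of 5.19 (SE 1.76, edgeR adjusted p = 0.0695). For Lcn8 (edgeR adjusted p = 0.0268) and Lcn9 (0.0548) the wild type HFD group held 1 read in total, so that the fitted log2 changes of 11.04 and 10.74 depend on the prior count. As a ratio of depth-scaled reads, 3102 against 1 for Lcn8 gave 3701 (exact 95% counting interval 664 to 146222) and 2551 against 1 for Lcn9 gave 3043 (546 to 120257), intervals that leave out the spread between mice.

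The other 5 members were not called by genotype. Crisp1 was at 3.41 (SE 2.64), Adam7 at 3.05 (SE 2.12), Lcn5 at 2.89 (SE 1.90), Rnase9 at 2.73 (SE 2.06) and Spink10 at 2.27 (SE 1.94), with edgeR adjusted p from 0.336 to 0.469. The median over the 8 was 3.23, beside 0.04 over all genes. Without Acod1-/- library 1 no member was called. Lcn8 was then at 3.36 (edgeR adjusted p = 0.263) and Rnase10 at 0.09 (adjusted p = 0.970), and no Lcn9 read was left in the Acod1-/- group. Without Acod1-/- library 5, Crisp1 was at -0.76 and Spink10 at -1.17, neither called (edgeR adjusted p = 0.856 and 0.722). The wild type HFD libraries served in both the diet and the genotype comparison, and without library 5 of that group 5 members were called by genotype. Without library 1, 2, 3 or 4 of that group 1, 1, 2 and 1 were called, Lcn8 each time.

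**Figure D3:**
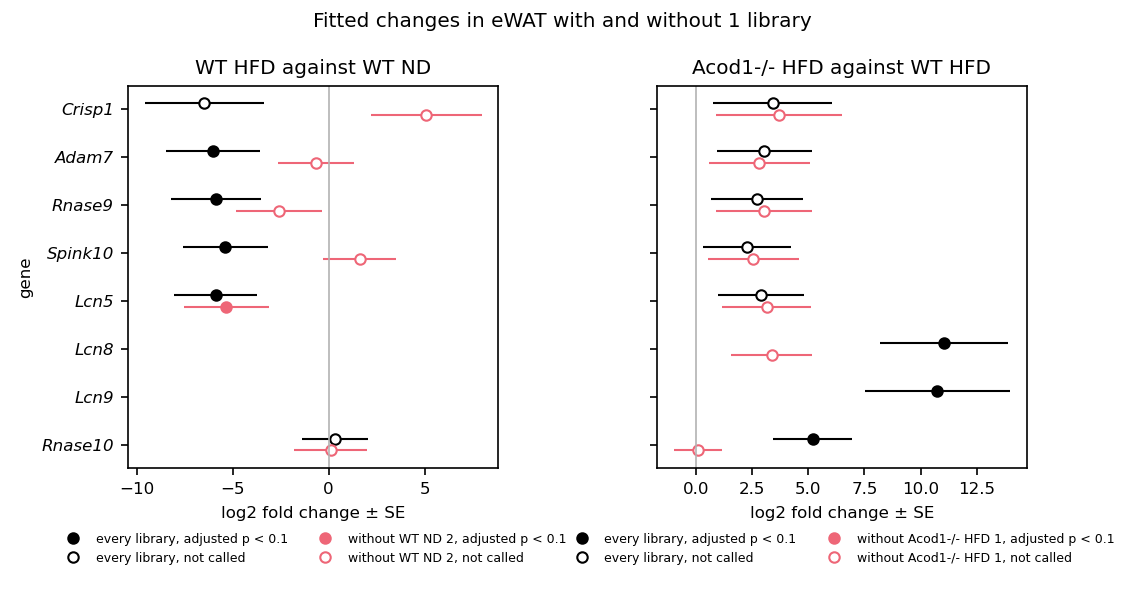
Fitted log2 fold change ± SE (x axis) of each gene (y axis) in eWAT for diet (left) and genotype (right), with every library (black) and without 1 library (red), filled where the edgeR adjusted p was under 0.1. Called members went from 4 to 1 for diet without ND library 2 and from 3 to 0 for genotype without Acod1-/- library 1, and folds resting on too few reads are left out.

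The identifiers in the file headers fell into 2 number series, and what they mark was not stated. All 4 eWAT ND libraries and library 5 of both HFD groups were in the second. Within the first, the summed level ran from 0.273 to 2.03 CPM in 4 wild type HFD libraries and from 1.98 to 272 in 4 Acod1-/- HFD libraries. The second held 1 library of each HFD group, at 121 and 1098, and the ND libraries at 2.43 to 7995. Diet could not be compared within the first series, which had no ND library. With the series as a term in the fit, 0 members were called by diet (0 at an unadjusted p under 0.05 by edgeR) and 2 by genotype, Lcn8 and Lcn9. The diet folds were then -4.77 for Lcn5 (SE 2.96), -4.62 for Adam7 (SE 2.93), -4.51 for Crisp1 (SE 3.32), -4.23 for Rnase9 (SE 2.54) and -3.28 for Spink10 (SE 2.30).

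In iWAT no member passed the filter, and the values came from a fit of all 31603 genes with any read, in which 23.6% of genes were called by diet and 0.244% by genotype in either direction. Of the 5 members with any read, 0 were called in either comparison by edgeR and 0 had an unadjusted p under 0.05. DESeq2 called 0 as well, but gave an adjusted p for only 3 of the 5 by diet and 1 by genotype. Rnase10, the only one with reads in most libraries, had log2 changes of 0.67 (SE 0.96, adjusted p = 0.667) by diet and 0.39 (SE 0.92, adjusted p = 0.932) by genotype, neither larger than its SE.

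A list of 48 other epididymal genes, chosen with the earlier results known, was read beside the members. All 48 were above the floor in at least 1 eWAT library, and their summed level was 1.01 to 4988 CPM in eWAT and 0.250 to 7.87 in iWAT. ND library 2 was the highest library for 26 of them, Acod1-/- library 1 for 17, ND library 3 for 4 and Acod1-/- library 4 for 1. The genes highest in Acod1-/- library 1 included the lipocalins Lcn6 and Lcn10, the cystatins Cst8, Cst11 and Cst12, the glutathione peroxidase Gpx5 and the beta-defensin Defb25. Gpx5 had 6199 reads there and Cst11 1671, which were 94.3% and 99.7% of their summed eWAT CPM without TMM.

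The 10 genes of that list with the highest mean level in eWAT were Spink8, Defb22, Wfdc13, Defb28, Serpina16, Wfdc10, Spint4, Wfdc15b, Rnase12 and Defb23, protease inhibitors and defensins for the most part. Each was highest in ND library 2, with Spink8 at 61718 reads, Defb22 at 33493 and Wfdc13 at 31482. Acod1-/- library 5 came next for 9 of the 10, with 8191 Spink8 reads. The exception was Spint4, with 13502 reads in ND library 2, 180 in wild type HFD library 5 and 45 in Acod1-/- library 5.

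Of the 48 genes, 35 passed the filter in eWAT. By diet 14 of the 35 were called lower and 0 higher, with a median log2 change of -4.33, and by genotype 6 were called higher and 0 lower, with a median of 2.84. Of all genes tested, 26.9% were called lower by diet and 9.13% higher by genotype. Nothing is read from the counts, folds or adjusted p of this list, which was chosen with results of these libraries known. The 14 included Crisp4, a paralogue of Crisp1 (log2 change -7.53, SE 2.51, edgeR adjusted p = 0.0276), Defb30 (-6.36, SE 1.94, adjusted p = 0.0182) and Wfdc8 (-6.20, SE 1.91, adjusted p = 0.0192). Those called by genotype were Cst8, Cst11, Cst12, Teddm1a, Ly6g5b and Spag11b. Without ND library 2 the diet calls were 1 lower and 2 higher, and without Acod1-/- library 1 the genotype calls were 1 higher. Without wild type HFD libraries 1 to 5 in turn the diet calls were 8, 7, 7, 6 and 24 and the genotype calls 3, 2, 4, 2 and 10, and without Acod1-/- library 5 the genotype calls were 10.

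The genes whose eWAT pattern was most like the summed members were found by Pearson's r of log2 CPM over the 14 libraries, among 22314 genes with at least 50 reads. They were Wfdc10 (r = 0.97), Defb42 (0.96), Spink8 (0.95), Cldn8 (0.95), Wfdc13 (0.95), Ceacam10 (0.95), BC048679 (0.94), Ces5a (0.94), Defb39 (0.94) and Serpina1f (0.94). The points share libraries and depth, and the few high libraries carry the correlation. Wfdc10 had 15621 reads in ND library 2, 2736 in Acod1-/- library 5, 961 in wild type HFD library 5, 253 in Acod1-/- library 1 and 0 to 109 in the others. Of the 10 genes, 5 were in the list of other epididymal genes and 1, Ceacam10, in the list of seminal vesicle, vas deferens and prostate genes.

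Transcripts of sperm and testis germ cells followed another order of libraries. The protamine gene Prm2, which packs DNA in sperm heads, had 7898 reads in Acod1-/- library 4, 2574 in Acod1-/- library 5, 1184 in ND library 2 and 1039 in Acod1-/- library 2. It had 0 to 291 reads in the other 10 eWAT libraries and 0 to 4 in iWAT. Acod1-/- libraries 4 and 2 had 213 and 52 reads of the 8 members, whereas Acod1-/- library 1, with 10957, had 5 Prm2 reads. Of 16 germ cell genes, 15 passed the filter in eWAT, 10 of them were called higher in Acod1-/- HFD than in wild type HFD and 0 lower, and by diet 4 were called lower. Over all genes the shares were 9.13% higher by genotype and 26.9% lower by diet. Nothing is read from these counts, because the list was chosen with earlier results known and a few libraries held most Prm2 reads. The 16 genes summed to 1044 CPM in Acod1-/- library 4 and to 25.3 to 54.1 in the 10 libraries low in Prm2. In iWAT their sum was 31.1 to 41.3, and Odf2 made up most of it. A list of 8 testis somatic cell genes was instead highest in ND library 2, the highest library of the members. Its sum was 73.2 CPM there, 28.9 in Acod1-/- library 4 and 2.65 to 59.1 in iWAT.

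**Figure D4:**
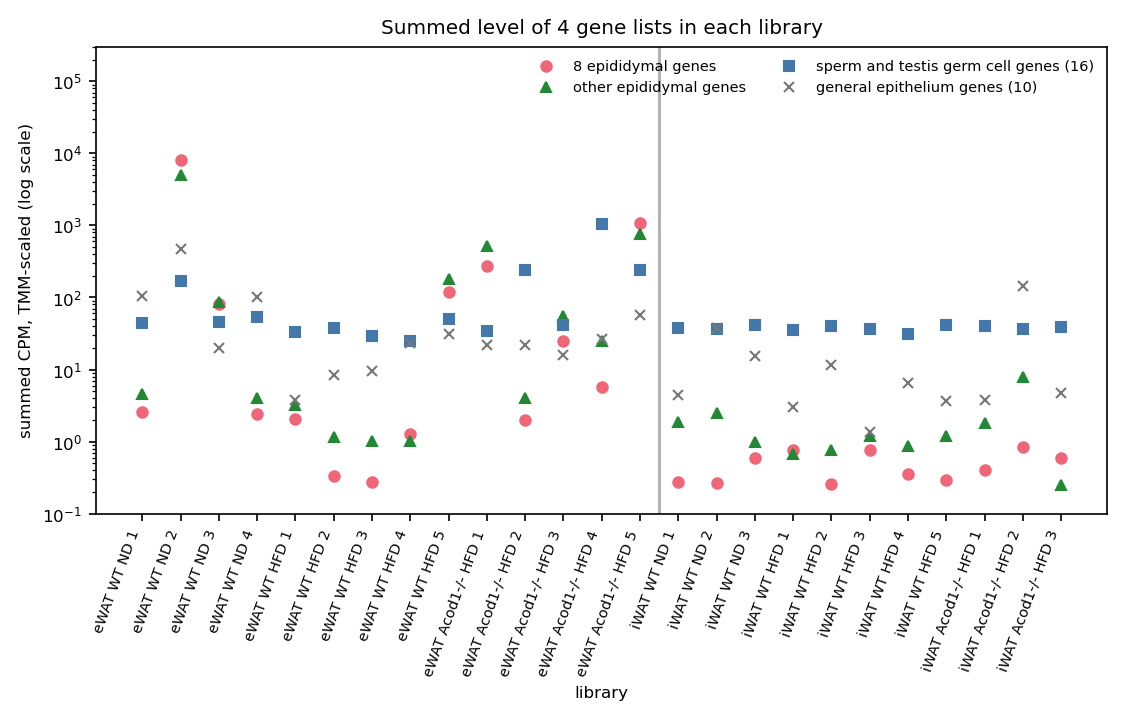
Summed TMM-scaled CPM (y axis, log scale) of 4 gene lists in each of the 25 libraries (x axis, eWAT left of the line). The members and the 48 other epididymal genes were high in the same eWAT libraries, from 0.273 and 1.01 at the lowest to 7995 and 4988 in ND 2, while the germ cell genes peaked at 1044 in Acod1-/- HFD 4.

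General epithelial genes were read in every library. The 10 of them summed to 478 CPM in ND library 2, 106 and 100.3 in ND libraries 1 and 4, and 3.72 to 57.0 in the other eWAT libraries. By diet 9 of the 9 that passed the filter were called lower on HFD, where 26.9% of all genes were, and by genotype 0 were called. Nothing is read from this count, because the list was chosen with earlier results known. ND library 3, at 20.2 CPM, lay inside the wild type HFD range of 3.72 to 30.7. ND libraries 1 and 4 had high epithelial genes with few member reads. Krt8, a keratin of simple epithelia, had 1765 and 1460 reads there, and Pax8, a transcription factor of kidney and genital tract epithelium, 305 and 310. Both genes were highest in ND library 2, with 5610 and 2891 reads. Pax8 came from a list of 10 genes of epididymal epithelial cell types. Of that list, Slc9a3 had 224 and 247 reads in ND libraries 1 and 4 and Pax2 had 46 and 26. In ND library 2, Slc9a3 had 196 reads and Pax2 had 1295. Ros1, Atp6v1b1, Foxi1 and Krt5 had 0 reads in ND libraries 1 and 4, and 111, 154, 377 and 487 in ND library 2. Aqp9, Atp6v0d2 and Trp63 were above the floor in every eWAT and every iWAT library. Atp6v0d2 had 4176 to 16988 reads in the wild type HFD libraries and 17 to 3804 in the other eWAT libraries. The list's summed level was highest in wild type HFD library 1, at 402 CPM, where Atp6v0d2 had 16988 of its 17041 reads. It was 203 CPM in ND library 2. ND library 3 carried skin genes, with 2630 reads of Krt10 and 1199 of Lor against at most 248 and 15 in the other eWAT libraries. Of the seminal vesicle genes, Svs2, Svs3a and Svs3b had 0 reads in all eWAT libraries and Svs1, Svs4, Svs5 and Svs6 at most 12, whereas Akr1b7, an enzyme of the vas deferens, had 1092 reads and Ceacam10 4165 in ND library 2. The part of any of these tissues in the values of the members was not tested.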

How the data were processed

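RNA was sequenced as 25 bulk libraries, 14 from eWAT and 11 from iWAT, grouped by the labels. The authors used a directional kit, trimmed reads with cutadapt, removed contaminants, aligned to mouse genome mm10 with STAR and used bedtools, as named in the submitters' processing notes. The counting program is not given in the sources used here. The deposited files hold counts per gene, from which every test was made, and the authors' FPKM, used only to compare levels between genes. The share of reads on no gene was 6.41 to 11.9% and was left out. The members and all gene lists were chosen with earlier results of these data known.

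Each depot was fitted over its 3 groups with edgeR 4.0.16 in R 4.3.3 (quasi-likelihood test, TMM scaling, mean of at least 1 CPM, Benjamini-Hochberg adjustment over all genes, call at adjusted p under 0.1), the authors' threshold. DESeq2 1.42.0 was an alternative. A member below the filter took its value from a fit of every gene with a read. The fit was also run on simulated counts with set fold changes. Those did not imitate genes whose reads sit in few libraries, so that run does not cover the members. Named were the 8 members, the 10 other epididymal genes with the highest mean CPM, the 10 most like the members (log2 CPM with a prior count of 2) and called or extreme genes of the other lists. Further genes that mark single libraries (Prm2, Gpx5, Cst11, Defb25, Lcn6, Lcn10, Pax8, Krt8, Krt14, Krt10, Lor) were named after their values were seen. The rest of the list that held Pax8 was named after its values were seen as well. Intervals and floors cover counting error only. That libraries of a group were separate mice rests on the labels.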

Additional observations from a re-analysis of the deposited data

Results flagged for a closer look

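Dixon's 95% criterion was used to list libraries that stood apart in TMM-scaled CPM, as a description and not as a test, since the members were selected on reads of these libraries. It was computed in groups of 4 to 10 libraries, for each member with more than 3 reads in at least 1 library of the group and for the members summed. It marked 20 of 27 groups. Chance marks about 1 in 20 groups of normally distributed values, a rate that does not apply to genes selected in this way, to counts with many zeros or to genes that share libraries. In eWAT ND, library 2 stood apart from the other 3 libraries for Crisp1 (6512), Adam7 (1053), Rnase9 (253.7), Spink10 (134.6), Lcn8 (0.0903, or 5 reads, marked by construction because the other 3 libraries had 0) and the sum (7995). In eWAT wild type HFD, library 5 stood apart for Crisp1 (89.7), Adam7 (19.6), Rnase9 (5.74), Spink10 (3.73), Lcn5 (1.65) and the sum (120.7). In eWAT Acod1-/- HFD, library 5 stood apart for Crisp1 (934.9), Rnase9 (33.5), Spink10 (17.8) and the sum (1098), and library 3 for Lcn5 (10.4). Library 1 of that group stood apart for Lcn8 (76.8), Lcn9 (63.4) and Rnase10 (44.2). The Lcn9 mark was also by construction, because every other library of the group had 0 Lcn9 reads. In iWAT only the wild type HFD group was large enough to be looked at, for the members above the floor and the sum, and it was not marked.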

How the results depend on the processing

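Of the 16 member tests in eWAT, 7 were called. The number was 2 with the number series as a term and 1 with the DESeq2 Wald test, which gave an adjusted p for 4 of the 16, and 2 to 10 when each library was left out. The log2 change of Rnase10 by diet turned to -0.62 with the series term, -0.03 without ND library 3 and -0.36 without wild type HFD library 4, in a range of -0.36 to 1.27 over the left-out libraries. Crisp1 by diet ranged from -11.60 to 5.10 over the left-out libraries, Spink10 by diet from -9.15 to 1.62, Crisp1 by genotype from -0.76 to 8.55 and Spink10 by genotype from -1.17 to 6.02. Lcn5 by diet was called in all 14 such fits, from -9.67 to -5.28, but not with the series term. Nothing is read from those 14 calls, because Lcn5 was selected on these reads. Its ND reads stood in libraries 2 and 3 (2302 and 1718), so leaving out 1 library always kept a high one. In iWAT 0 members were called in any setting. For the other epididymal genes, the 14 diet calls became 1 with the series term, 6 with DESeq2 (which gave an adjusted p for 7 of the 35 genes) and 3 to 24 without each library, and the 6 genotype calls became 3 with only the 2 groups compared, 2 of the same 7 with DESeq2 and 1 to 10 without each library. Those settings were applied to that list after the data were seen.

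Over all genes in eWAT, the 7730 diet calls became 5139 with the series term, and the 2976 genotype calls became 1717 at an adjusted p under 0.05 and 1723 to 4237 without each library. In iWAT the genotype calls, 0 by edgeR (2468 genes at an unadjusted p under 0.05), became 91 with 1 CPM in every library, 5 with DESeq2 size factors, 4 with the series term, 77 without a filter, 1072 with DESeq2 and 0 to 2659 without each library. The cause was not tested. The mean summed level was 743 CPM in eWAT and 0.489 in iWAT without TMM, and 7 of the 10 genes most like the members were also among the first 10 by Spearman's rho. No member had 1 CPM in every eWAT library, so that filter gave no value. With the replicate number as a block, 3 member tests were called, Adam7, Rnase9 and Spink10 by diet. Lcn5 by diet was then not called (edgeR adjusted p = 0.155), nor were Lcn8 (0.133), Lcn9 (0.145) and Rnase10 (0.544) by genotype, and 2 other epididymal genes were called by genotype. The numbers were not taken to pair the mice, since deviations of same-numbered eWAT libraries correlated at -0.258 to 0.257, over 0.1 in 9 of 13 pairs and not in all.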

Other observations

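Genes held largely by 1 eWAT library were listed after the data were seen, as those with at least 500 reads in a library that held at least 90% of the gene's summed CPM (without TMM) over the 14 libraries. Acod1-/- library 1 had 11 such genes, of which 3 were members and 6 other epididymal genes, and the remaining ones were 9230110F15Rik (631 reads) and the beta-defensin Defb41 (525 reads). ND library 2 had 9, of which 2 were other epididymal genes, Spint4 and Spint5, and the rest included Pate3 (2847 reads) and the urea transporter Slc14a2 (588 reads). ND library 3 had 2, the keratin Krt77 (1674 reads) and Lor, a protein of the cornified skin layer (1199 reads). The other 11 eWAT libraries had 0.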
